A study of Mus musculus with 4 samples.

Results

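The respiratory chain and ATP synthase of the inner mitochondrial membrane were examined in mouse dendritic cells through the transcripts of their nuclear-encoded genes. Genes were taken by symbol, as those beginning with Nduf followed by a, b, c, s or v, with Uqcr, with Cox followed by 4 to 8 or with Atp5, and the genes Sdha, Sdhb, Sdhc and Sdhd. This gave 89 genes of the 22180 that had a probe set of a single symbol, and a gene with several was read from the one of highest mean signal, without regard to treatment. Of the 89 genes, 34 carried a complex I subunit symbol, 8 were complex I assembly factors (Ndufaf1 to Ndufaf8), 4 belonged to complex II, 8 to complex III, 17 to complex IV and 18 to complex V. They include 2 pseudogenes, Uqcrh-ps1 and Atp5c1-ps. Symbols that shared a probe set with another symbol were left out unless they also had one of their own, which removed 9 names, among them Ndufb2, Ndufb4, Ndufs6, Uqcr10 and Cox6c.

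The cells were C57BL/6 bone marrow cultures harvested on day 7, in which antigen-presenting dendritic cells grow from marrow precursors. One group received 0.3 µM sulforaphane, an isothiocyanate known from broccoli that frees the transcription factor NRF2 from its inhibitor, in DMSO for 2 h, and the other DMSO alone. Both groups were then given 100 ng/ml E. coli lipopolysaccharide (LPS), the ligand of TLR4, for 1 h, so the DMSO cells were LPS-stimulated too. Each group had 2 Affymetrix arrays, and whether these came from separate mice or cultures is not given in the sources used here, so every p-value below measures a spread between arrays that may be technical alone. Values are log2 signals that the authors normalized with RMA. Unstimulated cells were not analysed here, so what LPS itself did to these genes is not addressed.

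Electrons from NADH enter the chain at complex I and those from succinate at complex II, pass through coenzyme Q, complex III and cytochrome c, and reach oxygen at complex IV. The proton gradient built on the way drives ATP synthesis by complex V. In dendritic cells and macrophages, TLR ligands are known to shift metabolism towards glycolysis, and succinate oxidation at complex II is known as a source of reactive oxygen in LPS-stimulated macrophages. Many nuclear genes of the chain are known targets of nuclear respiratory factor 1 (gene symbol Nrf1), of the ETS factor GABPA and of YY1. The factor GABPA is also called nuclear respiratory factor 2, a protein unrelated to NRF2 (gene symbol Nfe2l2), on which sulforaphane acts and which binds the antioxidant response element.

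Promoter sequences were available for 72 of the 89 genes, matched by Entrez identifier to RefSeq windows of assembly GRCm38.p6, each from 250 bases before to 50 bases after a transcription start. The motif of nuclear respiratory factor 1, GCGCA and GCGC with 1 base between them, stood on either strand in 18 of 77 windows of these genes (23.4%) and in 1512 of all 32851 windows in the table (4.60%). The ETS core CCGGAA stood in 29 of 77 (37.7%), against 4894 of all windows (14.9%). The YY1 motif AAGATGGC was found in 10 of 77 (13.0%), against 903 of all windows (2.75%). The antioxidant response element, TGAC and GCA with 3 bases between them, was found in 1 of 77 (1.30%), that of Atp5o, against 999 of all windows (3.04%). No motif of the 4 contains another, a match is a description of letters and not a bound site, and no test was made of these shares.

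These windows are shown to set the genes of smallest p beside genes that carry the motifs. Ndufb3 and Atp5g1 are subunit genes with an unadjusted p under 0.05 in the comparison. Their windows held none of the 4 motifs, as did those of Ndufa12 and Ndufaf2. Windows of genes whose groups overlapped, such as Atp5b and Ndufa13, also held none. Whether the motifs go with the differences was not tested. That of Sdhd held 1 match to nuclear respiratory factor 1 and 2 to the ETS core, and that of Atp5o 1 match each to the antioxidant response element, the ETS core and nuclear respiratory factor 1. All are written 5′ to 3′ on the strand of the gene, as RefSeq of GRCm38.p6 gives them, and capitals mark the matches. In the order of the lines they lie at chr1:58586147-58586446 on the plus strand, chr11:96075582-96075881 on the minus strand, chr9:50603800-50604099 on the minus strand and chr16:91931581-91931880 on the minus strand.
Ndufb3: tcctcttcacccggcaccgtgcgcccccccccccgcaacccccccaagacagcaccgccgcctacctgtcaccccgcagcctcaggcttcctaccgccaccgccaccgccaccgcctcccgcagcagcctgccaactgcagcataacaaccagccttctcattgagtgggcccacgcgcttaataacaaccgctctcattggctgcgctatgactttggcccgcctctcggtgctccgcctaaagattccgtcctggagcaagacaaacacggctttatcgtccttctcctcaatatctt
Atp5g1: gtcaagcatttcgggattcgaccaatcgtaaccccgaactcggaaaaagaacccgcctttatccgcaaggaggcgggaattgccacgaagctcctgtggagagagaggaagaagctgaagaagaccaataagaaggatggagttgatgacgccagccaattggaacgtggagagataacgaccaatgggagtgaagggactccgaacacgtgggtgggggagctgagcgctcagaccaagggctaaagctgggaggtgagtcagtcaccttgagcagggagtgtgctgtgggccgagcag
Sdhd: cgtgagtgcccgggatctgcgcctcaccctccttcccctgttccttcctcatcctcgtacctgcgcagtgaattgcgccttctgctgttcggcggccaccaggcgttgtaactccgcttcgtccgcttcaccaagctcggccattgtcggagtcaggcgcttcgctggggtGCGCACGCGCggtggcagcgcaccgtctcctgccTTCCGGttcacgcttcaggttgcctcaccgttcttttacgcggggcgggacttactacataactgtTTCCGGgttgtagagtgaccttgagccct
Atp5o: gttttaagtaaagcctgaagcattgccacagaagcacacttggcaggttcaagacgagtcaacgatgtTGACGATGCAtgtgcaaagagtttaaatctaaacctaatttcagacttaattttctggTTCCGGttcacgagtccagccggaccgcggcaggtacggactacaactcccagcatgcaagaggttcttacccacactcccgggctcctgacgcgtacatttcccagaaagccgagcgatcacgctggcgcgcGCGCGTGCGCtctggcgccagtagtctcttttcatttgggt
In the Sdhd window the nuclear respiratory factor 1 match began 79 bases before the start and the ETS matches 45 bases before and at base 22 after it. In the Atp5o window the antioxidant response element began 182 bases before the start.

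No gene of oxidative phosphorylation passed the test between sulforaphane and DMSO. The question was whether transcripts of any of the 5 complexes differ in LPS-stimulated dendritic cells after sulforaphane. Of the 89 genes, 83 had a mean log2 signal over 2.91, the 40th percentile of the probe sets, and were tested by limma among 14652 genes in all. At a Benjamini-Hochberg adjusted p under 0.05, limma called 0 of the 83, against 19 of all genes tested (0.130%), and the smallest adjusted p among them was 0.258. Before adjustment, p was under 0.05 for 4 of the 83 (4.82%), all higher with sulforaphane, against 13.0% of all genes tested. The largest of the 83 differences was that of Cox7b, 1.38-fold. Of the 83 genes, 47 lay above 0 and 36 below (56.6% above, against 54.2% of all genes tested), with a median log2 difference (sulforaphane minus DMSO) of 0.026, against 0.018 over all genes tested. Without DMSO replicate 1 the count above 0 was 37 and the median -0.014, and after a second quantile normalization they were 40 and -0.0046. All genes tested moved in the same direction, to a median of -0.0034 without DMSO replicate 1 and -0.0063 after the second normalization, with 49.3% and 48.5% above 0. The 95% interval lay within 1.5-fold in both directions for 72 of the 83 genes, or 86.7%, against 74.1% of all genes tested. In 17 of the 83 both sulforaphane arrays lay above both DMSO arrays (20.5%, against 24.0% of all genes tested), and in 9 both lay below (10.8%, against 19.5%). For a single gene with 2 arrays a side, the smallest two-sided p of an exact permutation test is 0.333.

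**Figure D1:**
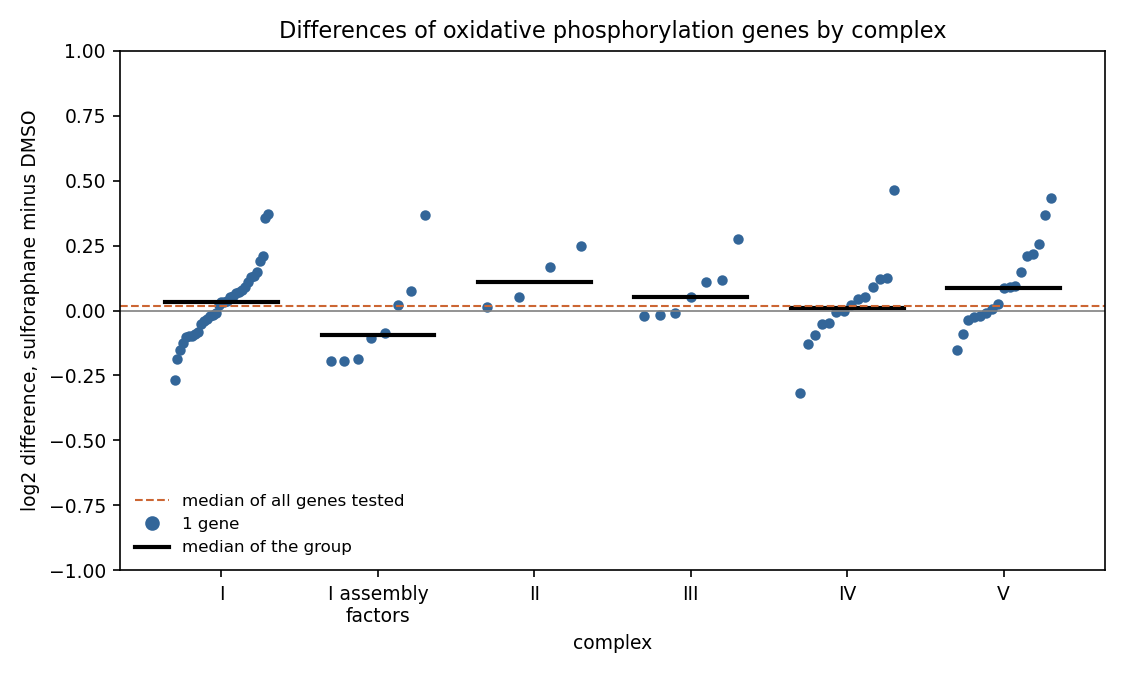
Log2 difference, sulforaphane minus DMSO (vertical axis), of the 83 genes tested, each a point, by complex (horizontal axis), with a black bar at the median of each group and a dashed line at the median of all genes tested, 0.018. The points run from -0.32 to 0.46, and the medians of complexes I to V lie between 0.0095 and 0.11.

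Known NRF2 targets were read in the same fit, in a list made with earlier results of these data known. A list chosen that way cannot serve as an independent check that the treatment acted. In all 8 targets both sulforaphane arrays lay above both DMSO arrays, against 24.0% of all genes tested, with a median difference of 0.80. Only 1 of the 8 passed the threshold, Osgin1, an oxidative stress-responsive growth inhibitor (1.57 ± 0.13 SE, n = 2 per group, limma adjusted p = 0.0322). With any 1 array left out, limma called 0 genes, and Osgin1 no longer passed. Hmox1, the heme oxygenase, differed by 1.03 ± 0.11 (limma adjusted p = 0.0510). Among markers of the cells a marrow culture can hold, Itgax of dendritic cells had log2 values of 11.33 and 11.32 with sulforaphane and 11.26 and 11.26 with DMSO. Of 10 dendritic cell markers 3 were higher without overlap, Itgax by 0.066 and the MHC class II genes H2-Aa and H2-Ab1 by 0.16 and 0.26. Another 4 were lower without overlap and further apart, the transcription factors Irf4 (-0.87, limma adjusted p = 0.0565), Batf3 (-0.64) and Zbtb46 (-0.34) and the receptor Flt3 (-0.42). The linear signals of the 10 summed to 13019 to 13128 with sulforaphane and 12023 to 13232 with DMSO. Of 7 macrophage markers 6 lay below 0, with Mertk (-0.39), Fcgr1 (-0.28) and Adgre1 (-0.10) lower without overlap and none higher. Their sum was 11233 to 11266 with sulforaphane and 10748 to 12074 with DMSO, and that over 8 neutrophil markers 7574 to 8451 with sulforaphane and 6911 to 8238 with DMSO. Of 6 mast cell markers 4 were lower without overlap, furthest in Hdc (-0.61) and Gata2 (-0.57), with sums of 1772 to 1897 with sulforaphane and 1948 to 2004 with DMSO. Over all genes tested, 24.0% were higher and 19.5% lower without overlap. None of these markers passed the threshold, and those of B and T cells were near the bottom of the scale. What part other cell types had in the differences below was not tested. DMSO replicate 1 differed from the other arrays in spread, its interquartile range being 3.41 over all probe sets and theirs 3.61 or 3.62, and it was the lowest of the 4 arrays for 36.7% of all genes tested. In these mixed cultures fewer cells of a type and less RNA per cell cannot be told apart.

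Complex I, which oxidizes NADH, had the most genes, and 33 of its 34 were tested. Of these 18 lay above 0 and 15 below, with a median of 0.032 that was -0.023 after a second quantile normalization. In 9 genes the groups were apart on every array. With sulforaphane 5 were higher (15.2%, against 24.0% of all genes tested) and 4 lower (12.1%, against 19.5%). Ndufb3, an accessory subunit of the membrane arm, had the smallest p of all genes of the 5 complexes. Its log2 signal was 4.43 and 4.48 in the sulforaphane arrays, against 4.03 and 4.14 in the DMSO arrays. The groups did not overlap, and the difference was 0.37 ± 0.11 (moderated SE, n = 2 per group, 95% interval 0.10 to 0.64), with an adjusted p of 0.258 by limma. Ndufa12, an accessory subunit of the arm that faces the matrix, read 5.75 and 5.67 in the sulforaphane arrays, against 5.32 and 5.39 in the DMSO arrays. Both sulforaphane arrays were again above both DMSO arrays, with a difference of 0.36 ± 0.11 and a limma adjusted p of 0.263. The other probe set of Ndufa12 differed by 0.11.

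The flavin and iron-sulphur subunits of complex I carry electrons from NADH towards coenzyme Q. Each of those tested, and the core subunit Ndufs3, which holds neither cofactor, had a 95% interval within 1.5-fold in both directions. Over these 6 genes (Ndufv1, Ndufv2, Ndufs1, Ndufs3, Ndufs7 and Ndufs8), the median difference was 0.084, with 5 above 0 and Ndufs1 below at -0.099. Ndufs7, which holds the last iron-sulphur cluster before coenzyme Q, had 11.11 and 11.20 in the sulforaphane arrays, against 10.97 and 11.04 in the DMSO arrays. Ndufv1, the subunit that binds NADH and the flavin, had 9.77 and 9.78 in the sulforaphane arrays, against 9.67 and 9.66 in the DMSO arrays. Both genes were higher with sulforaphane without overlap, by 0.15 ± 0.11 and 0.11 ± 0.10, and neither passed (limma adjusted p = 0.638 and 0.731). Ndufv2, the flavoprotein partner of Ndufv1, differed by 0.13 with all arrays and by -0.084 without DMSO replicate 1. Ndufa10, an accessory subunit of the membrane arm, was the fifth gene higher without overlap, by 0.081.

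Other accessory subunits of complex I were below the DMSO level. Ndufa5, of the matrix arm, had 5.32 and 5.28 in the sulforaphane arrays, against 5.54 and 5.43 in the DMSO arrays. Ndufb11, an X-linked subunit of the membrane arm, had 5.56 and 5.42 in the sulforaphane arrays, against 5.60 and 5.69 in the DMSO arrays. Ndufab1, the mitochondrial acyl carrier protein, read 4.76 and 4.59 in the sulforaphane arrays, against 4.81 and 4.79 in the DMSO arrays. In these 3 and in Ndufv3, a small flavoprotein subunit, both sulforaphane arrays lay below both DMSO arrays, with differences of -0.19, -0.15, -0.13 and -0.053. The limma adjusted p was 0.548 for Ndufa5 and higher for the other 3. In 3 further accessory subunits, Ndufa3, Ndufb9 and Ndufb6, the DMSO arrays lay more than 0.4 apart, and the differences of 0.21, 0.19 and -0.10 became -0.093, -0.036 and 0.14 without DMSO replicate 1. The other tested complex I genes overlapped between the groups and differed by -0.097 (Ndufa1) to 0.13 (Ndufa7), apart from Ndufa4l2, described with complex IV. Ndufa8 was -0.016 in the probe set used and 0.22 in its other one. Ndufs5, with a mean signal under the threshold, was not tested.

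The assembly factors of complex I stand apart from its subunits in role, since they leave the finished complex. Of the 8, all tested, 3 lay above 0 and 5 below, with a median of -0.096. Ndufaf2, a paralogue of Ndufa12 that acts late in assembly, was 4.36 and 4.32 in the sulforaphane arrays, against 4.05 and 3.90 in the DMSO arrays, a difference of 0.37 ± 0.11 (95% interval 0.091 to 0.64, limma adjusted p = 0.265). The groups did not overlap, as in Ndufa12. Ndufaf4 read 6.11 and 6.23 in the sulforaphane arrays, against 6.39 and 6.34 in the DMSO arrays. Ndufaf3, with which it works early in assembly, read 8.29 and 8.34 in the sulforaphane arrays, against 8.41 and 8.59 in the DMSO arrays. Ndufaf6 was the third factor below the DMSO arrays without overlap, with a difference of -0.11, and the first 2 differed by -0.20 and -0.18, with a limma adjusted p of 0.526 and 0.580. Sulforaphane replicate 1 was the lowest array for 6 of the 8 factors, against 22.4% of all genes tested. Of the 8, 37.5% were lower and 12.5% higher without overlap, against 19.5% and 24.0% of all genes tested. Whether assembly factors differed from subunits was not tested.

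Complex II, succinate dehydrogenase, was the only complex whose tested genes all lay above 0, and none of the 4 passed. Sdha, the flavoprotein that oxidizes succinate, had 10.27 and 10.21 in the sulforaphane arrays, against 10.26 and 10.18 in the DMSO arrays. Sdhb, the iron-sulphur subunit, had 8.02 and 7.86 in the sulforaphane arrays, against 7.73 and 7.82 in the DMSO arrays. In Sdha the groups overlapped, and in Sdhb both sulforaphane arrays were higher. Sdhc, a membrane anchor, had 8.13 and 8.11 in the sulforaphane arrays, against 8.12 and 8.01 in the DMSO arrays. Sdhd, the other anchor, had 9.87 and 9.80 in the sulforaphane arrays, against 9.73 and 9.44 in the DMSO arrays. The groups overlapped in Sdhc and did not in Sdhd. Thus 2 of the 4 genes were higher without overlap (50%, against 24.0% of all genes tested). The difference of Sdhd was 0.25 ± 0.13 (95% interval -0.078 to 0.58, limma adjusted p = 0.510), and was 0.39 without DMSO replicate 1 and 0.11 without DMSO replicate 2. That of Sdhb was 0.17 (limma adjusted p = 0.623), that of Sdhc 0.053 and that of Sdha 0.015, and sulforaphane replicate 1 was the highest array for all 4 genes. Without DMSO replicate 2 Sdha and Sdhc lay below 0, at -0.021 and -0.0032. The median of complex II was 0.11, and the 95% interval of each gene lay within 1.5-fold.

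In complex III, which passes electrons from coenzyme Q to cytochrome c, 7 of 8 genes were tested, with 4 above 0, 3 below and a median of 0.051. Uqcrh, the hinge protein that contacts cytochrome c1, had 7.79 and 7.74 in the sulforaphane arrays, against 7.63 and 7.67 in the DMSO arrays. Uqcrc2, a core protein, had 10.32 and 10.30 in the sulforaphane arrays, against 10.15 and 10.25 in the DMSO arrays. Both were a little higher with sulforaphane without overlap, by 0.12 and 0.11, with a limma adjusted p of 0.720 and 0.742. These were 2 of 7 genes (28.6%, against 24.0% of all genes tested), and 0 were lower without overlap (against 19.5%). Uqcrc1, the other core protein, differed by -0.010 and the Rieske iron-sulphur protein Uqcrfs1 by -0.021, both with overlapping groups. The largest difference was that of Uqcrq, a small subunit with 4.06 and 4.31 with sulforaphane and 3.76 and 4.07 with DMSO. The groups overlapped, and the difference of 0.27 ± 0.15 (limma adjusted p = 0.527) was 0.12 without DMSO replicate 1. Uqcrb and Uqcr11, other small subunits, differed by 0.051 and -0.019, and the pseudogene Uqcrh-ps1 was not tested.

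**Figure D2:**
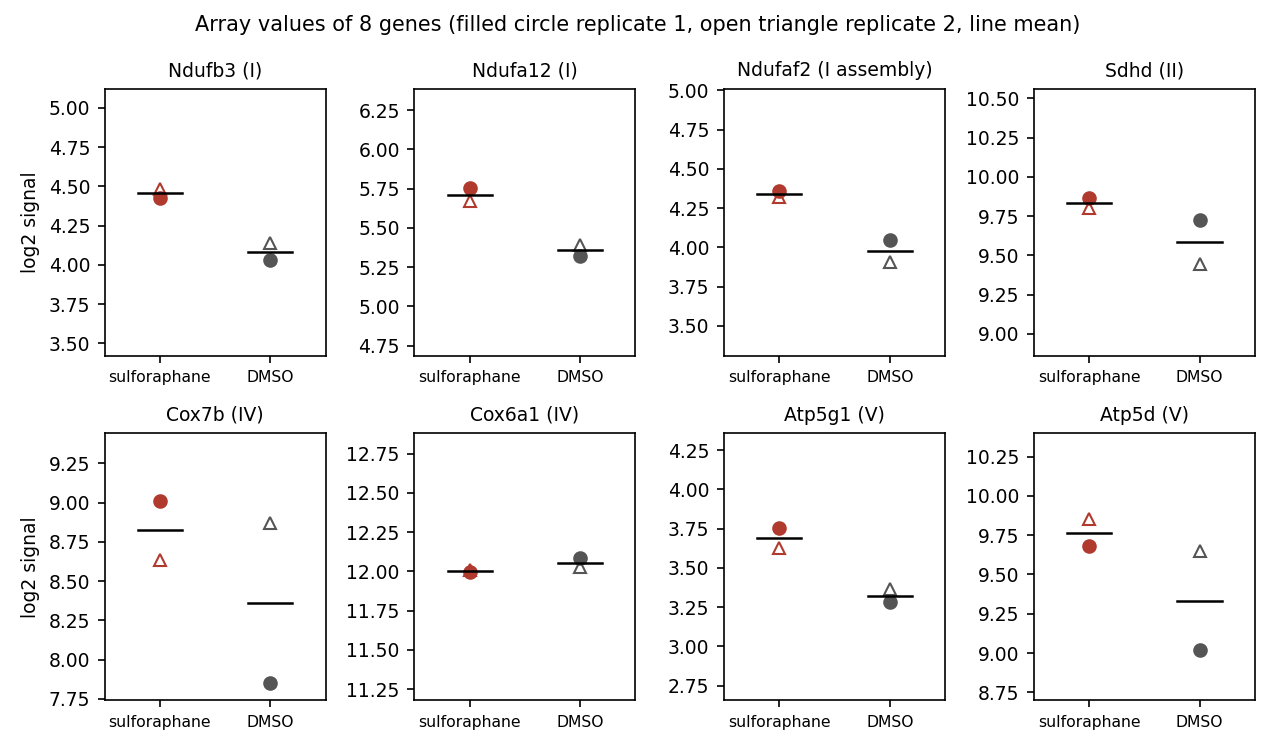
Log2 signal (vertical axis, each panel spanning the same log2 width) of 8 genes in the sulforaphane arrays at the left and the DMSO arrays at the right, with replicate 1 as a filled circle, replicate 2 as an open triangle and the mean as a line. In Ndufb3, Ndufa12, Ndufaf2 and Atp5g1 the replicates lie close together and the groups apart, while in Cox7b and Atp5d DMSO replicate 1 lies far below DMSO replicate 2. The first 4 are the genes with a limma unadjusted p under 0.05. Of them Atp5g1, Ndufaf2 and Ndufb3 had low mean signals, 3.51, 4.16 and 4.27, with the filter at 2.91.

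In complex IV, cytochrome c oxidase, 14 of 17 genes were tested, 7 above 0 and 7 below, and the median of 0.0095 was -0.025 after a second quantile normalization. The groups did not overlap in 2 genes, 1 higher and 1 lower (7.14% each, against 24.0% and 19.5% of all genes tested). Cox5b, a subunit on the matrix side, had 8.77 and 8.60 in the sulforaphane arrays, against 8.57 and 8.56 in the DMSO arrays. Cox6a1, the general isoform of subunit 6a, had 12.00 and 12.01 in the sulforaphane arrays, against 12.08 and 12.03 in the DMSO arrays. Their differences were 0.12 and -0.053. In Cox6a1 the 4 arrays spanned less than 0.1 on the log2 scale, and its 95% interval ran from -0.31 to 0.20. The largest difference, in Cox7b, rested on 1 array. Its signal was 9.01 and 8.63 in the sulforaphane arrays, against 7.85 and 8.87 in the DMSO arrays. DMSO replicate 1 was far below the other 3 arrays, among which DMSO replicate 2 was between the sulforaphane arrays. The difference was 0.46 ± 0.33 with all arrays (limma adjusted p = 0.628), -0.048 without DMSO replicate 1 and 0.97 without DMSO replicate 2.

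Several subunits of complex IV exist as a general isoform and one known from particular tissues, and neither kind differed past the threshold. For subunit 4, the general Cox4i1 had 10.18 and 10.26 with sulforaphane and 10.31 and 10.14 with DMSO, a difference of -0.0033. Cox4i2, known from lung and from hypoxic cells, had 3.01 and 3.47 in the sulforaphane arrays, against 3.42 and 3.71 in the DMSO arrays, with overlapping groups and a difference of -0.32 ± 0.19 (limma adjusted p = 0.540), which was -0.091 without sulforaphane replicate 1. Cox6a2 and Cox7a1, the heart and skeletal muscle isoforms, differed by 0.13 and 0.051, and the general Cox7a2 by -0.094. Each of these 2 muscle isoforms turned below 0 without DMSO replicate 1, to -0.072 and -0.24. Cox6b1 differed by -0.0042, its testis isoform Cox6b2 by -0.13, Cox8a by 0.046 and Cox7a2l, known from work on respiratory supercomplexes, by 0.022. Cox8b, Cox8c and Cox7b2, isoforms known from muscle or testis, had means under the intensity threshold and were not tested. Ndufa4, which carries a complex I symbol but is known as a subunit of complex IV, had 7.84 and 7.69 with sulforaphane and 7.60 and 7.94 with DMSO, and Ndufa4l2, its hypoxia-induced paralogue, 3.26 and 3.04 with sulforaphane and 3.68 and 3.15 with DMSO. In Ndufa4l2 DMSO replicate 1 was the high array, and its difference of -0.27 was -0.00023 without it.

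Complex V, the ATP synthase, had 17 of 18 genes tested, 11 above 0 and 6 below, with a median of 0.089. The groups did not overlap in 7 genes. Of the 17, 6 were higher (35.3%, against 24.0% of all genes tested) and 1 lower (5.88%, against 19.5%). Of the genes for the membrane c ring, which turns as protons pass, Atp5g1 had 3.76 and 3.63 in the sulforaphane arrays, against 3.28 and 3.36 in the DMSO arrays. Its difference was 0.37 ± 0.11 (95% interval 0.091 to 0.64, limma adjusted p = 0.265). The mean signal of Atp5g1, 3.51, lay under a stricter filter at the 60th percentile of the probe sets, 3.87. Atp5g2, which encodes the same mature protein, had 10.89 and 10.94 in the sulforaphane arrays, against 10.71 and 10.82 in the DMSO arrays. The groups did not overlap there either, with a difference of 0.15, while Atp5g3, the third gene of that protein, differed by 0.026 with overlapping groups. The other probe set of Atp5g2 differed by 0.14, also without overlap. Atp5j, coupling factor 6 of the peripheral stalk, had 8.03 and 8.04 in the sulforaphane arrays, against 7.65 and 7.90 in the DMSO arrays. It differed by 0.26 ± 0.13 without overlap (limma adjusted p = 0.469), and by 0.13 without DMSO replicate 1. The other membrane and stalk genes were Atp5l (0.089, higher without overlap), Atp5k (0.21), Atp5pb (0.095), Atp5md (0.091), Atp5mpl (0.0068), Atp5h (-0.010), Atp5o (-0.022) and Atp5j2 (-0.089), all overlapping except Atp5l. Atp5o, whose window holds the antioxidant response element letters, had 2.98 and 3.32 with sulforaphane and 3.06 and 3.29 with DMSO. Its mean signal, 3.16, lay under the stricter filter of 3.87. It also lay under the median of all probe sets, which was 3.24 to 3.27 on the arrays. At a signal this near the bottom of the scale, the overlap cannot show whether Atp5o responded. The pseudogene Atp5c1-ps was not tested.

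The catalytic head of complex V showed no common direction. Atp5a1 and Atp5b, its alpha and beta subunits, differed by -0.024 and -0.036, each with a 95% interval within 1.5-fold. Atp5d, the delta subunit of the central stalk, had 9.68 and 9.85 in the sulforaphane arrays, against 9.02 and 9.65 in the DMSO arrays. The groups did not overlap, but DMSO replicate 1 lay far below the other arrays, and the difference of 0.43 ± 0.21 (limma adjusted p = 0.472) was 0.12 without it. A second probe set of Atp5d differed by -0.0055. Atp5e, the epsilon subunit, had 9.07 and 9.12 in the sulforaphane arrays, against 8.75 and 9.02 in the DMSO arrays. The groups did not overlap, and the difference was 0.22 with all arrays and 0.084 without DMSO replicate 1. A second probe set of Atp5e differed by 0.24, with overlapping groups. Atp5c1, the gamma subunit, was the gene without overlap on the lower side, with 4.26 and 4.07 in the sulforaphane arrays, against 4.37 and 4.27 in the DMSO arrays, a difference of -0.15 (limma adjusted p = 0.666). The median of the 5 head and central stalk genes was -0.024.

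DMSO replicate 1 was the lowest array more often than any other, in these genes as over all genes tested, and at a similar share. Relative to each gene's mean over the arrays, the median of the 83 genes was 0.033 in sulforaphane replicate 1, 0.011 in sulforaphane replicate 2, -0.050 in DMSO replicate 1 (all genes tested -0.030) and 0.025 in DMSO replicate 2. DMSO replicate 1 was the lowest array for 34 of the 83 genes (41.0%), against 36.7% of all genes tested, and for 9 of 17 genes of complex V. The DMSO arrays lay more than 0.4 apart in 9 of the 83 genes (10.8%, against 11.8% of all genes tested), and DMSO replicate 1 was the lower one in 7, Cox7b, Atp5d, Ndufa3, Cox7a1, Ndufb9, Uqcrfs1 and Ndufv2. The sulforaphane arrays lay that far apart in 1 gene, Cox4i2. Without DMSO replicate 1 the median of complex V was 0.0016, against 0.089 with all arrays, that of complex I was -0.00023, against 0.032, and those of complexes III and IV were -0.018 and -0.057, against 0.051 and 0.0095. What sets DMSO replicate 1 apart was not tested.

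**Figure D3:**
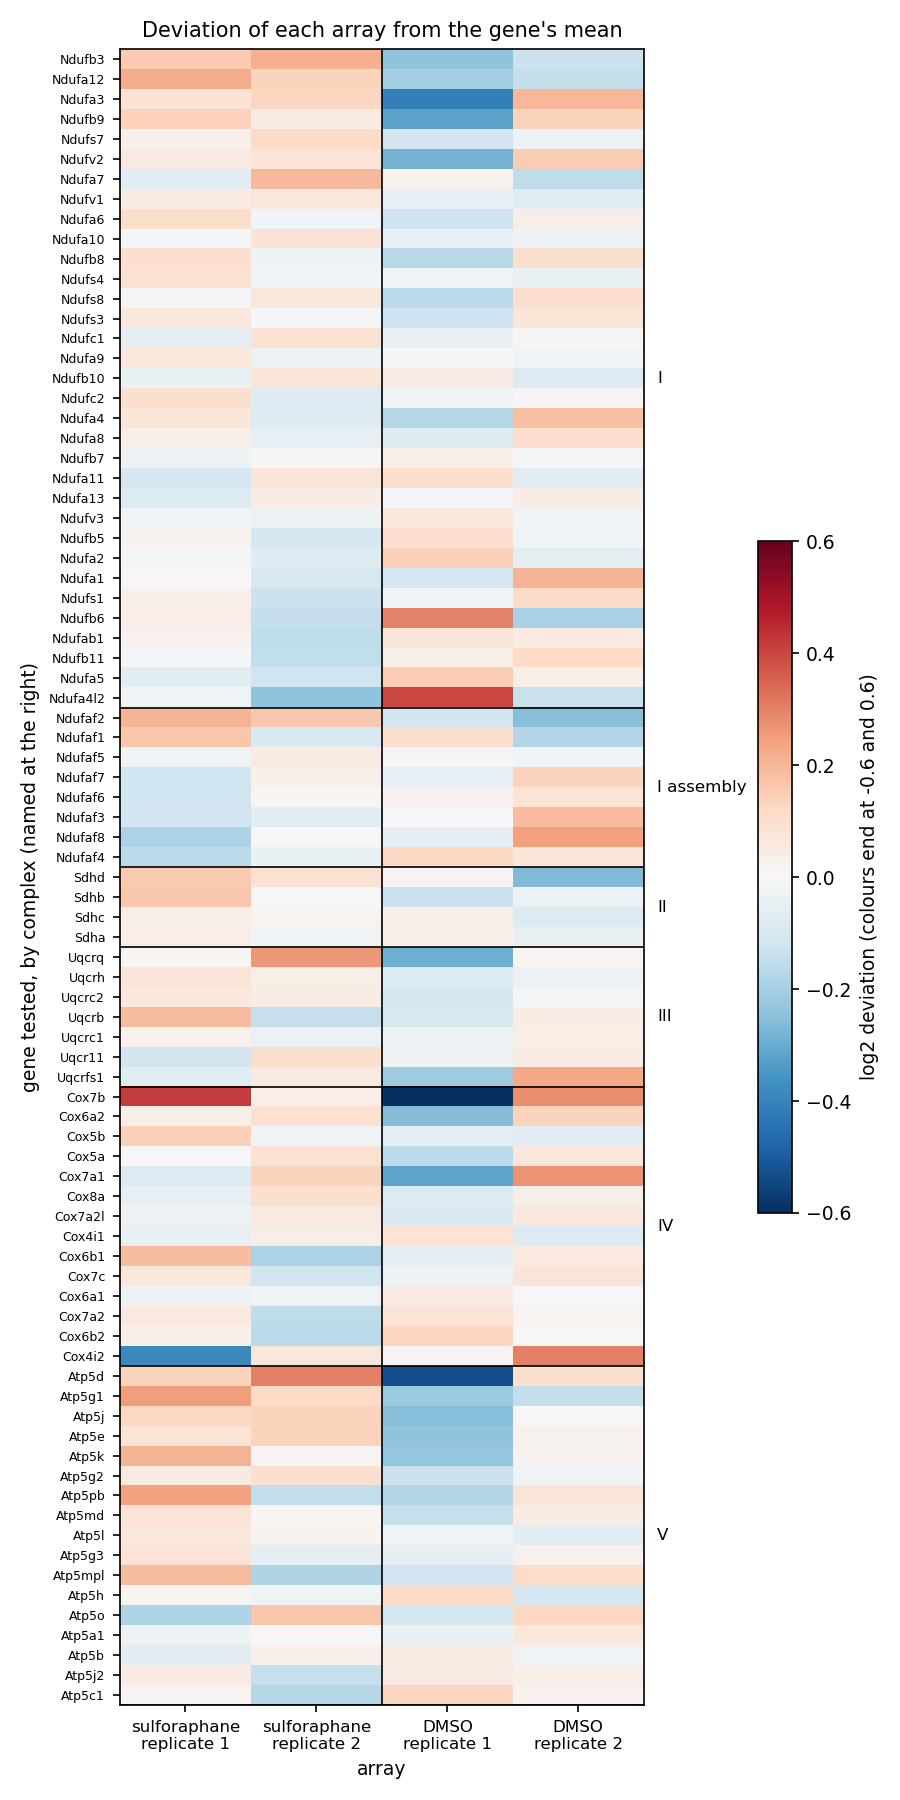
Deviation of each array (columns) from the mean of the 4 arrays, on the log2 scale as colour, for the 83 genes tested (rows), ordered by complex and by difference. Blue cells of DMSO replicate 1 reach furthest from the mean in Cox7b and Atp5d, and most other cells are pale.

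**Figure D4:**
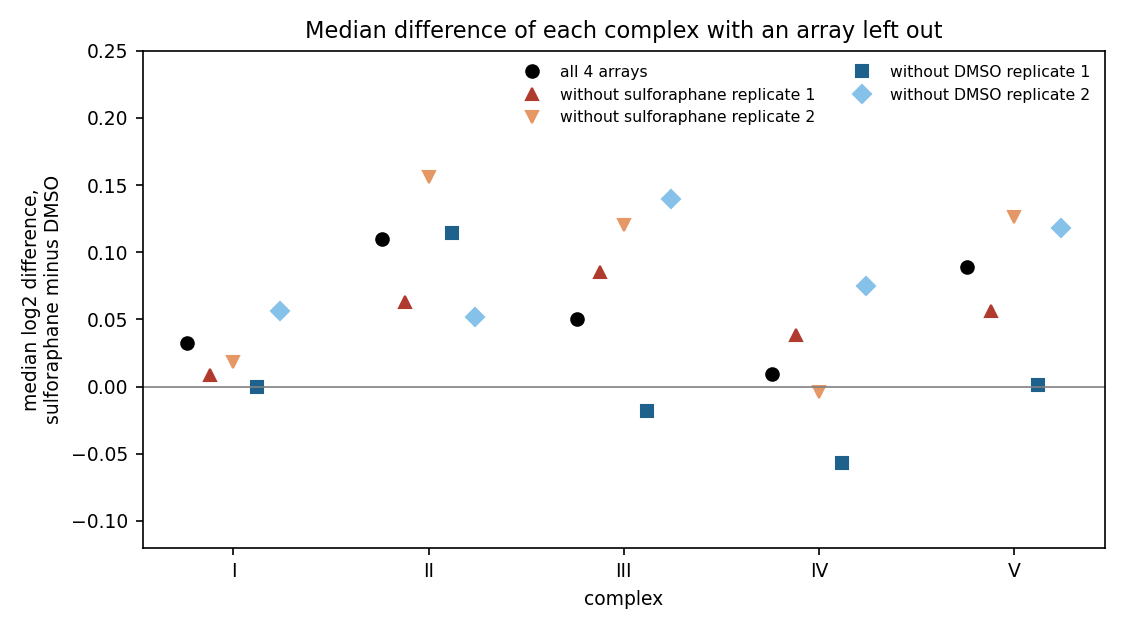
Median log2 difference, sulforaphane minus DMSO (vertical axis), of complexes I to V (horizontal axis) with all 4 arrays and with each array left out in turn. Without DMSO replicate 1 the medians of complexes I, III and IV lie below 0, at -0.00023, -0.018 and -0.057. Those of complexes II and V are above 0 in all 5 settings shown, that of complex V at 0.0016 without DMSO replicate 1.

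Genes that work with the 5 complexes, in lists made with earlier results of these data known, were read in the same fit, and none of those tested passed the threshold. Of 18 genes of electron carriers and coenzyme Q synthesis, 12 lay above 0 and 6 below (66.7% above, median 0.0063). Coq10a, a coenzyme Q-binding protein, had 7.61 and 7.63 in the sulforaphane arrays, against 7.13 and 7.33 in the DMSO arrays, and the methyltransferase Coq3 had 7.60 and 7.70 in the sulforaphane arrays, against 6.98 and 7.35 in the DMSO arrays. Both were higher without overlap, by 0.39 and 0.49 (limma adjusted p = 0.266 and 0.272). Of 36 assembly factors outside the symbols above, 27 lay above 0 and 9 below (75.0% above, against 54.2% of all genes tested, median 0.073), with Cox19, a copper-handling protein, at 0.31 and Taco1, a translational activator of a mitochondrial complex IV gene, at 0.50. Of 17 genes of the TCA cycle and pyruvate metabolism, 14 lay above 0 and 3 below (82.4% above, median 0.063). DMSO replicate 1 was the lowest array for 8 of the 18 carrier and coenzyme Q genes, 18 of the 36 assembly factors and 9 of the 17 TCA cycle genes, against 36.7% of all genes tested, and its part in the counts above 0 was not tested. Pcx, pyruvate carboxylase, had 6.32 and 6.53 in the sulforaphane arrays, against 5.60 and 5.84 in the DMSO arrays. It differed by 0.70 ± 0.14 without overlap (limma adjusted p = 0.135), and Pdha1, of pyruvate dehydrogenase, by 0.15.

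Of 17 regulators of mitochondrial gene expression, 8 lay above 0 and 9 below (median -0.010). Ppargc1b, a coactivator of nuclear respiratory factor 1 and of estrogen-related receptors, had 6.48 and 6.53 in the sulforaphane arrays, against 7.13 and 7.14 in the DMSO arrays. The replicates of each group differed by less than 0.1 and the groups by -0.63 ± 0.11 (95% interval -0.89 to -0.37), with a limma adjusted p of 0.0947. Pprc1, a related coactivator, had 6.72 and 6.86 in the sulforaphane arrays, against 7.04 and 7.24 in the DMSO arrays. It differed by -0.35 ± 0.13 without overlap (limma adjusted p = 0.327). Of 12 genes for coupling and metabolite exchange, 5 lay above 0 and 7 below, among them the aspartate-glutamate carriers Slc25a12 (0.17) and Slc25a13 (-0.14). The 13 genes encoded in mitochondrial DNA were not analysed here.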

How the data were processed

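The authors deposited log2 signals of 41345 probe sets on 4 arrays. Per the submitters' processing notes they used RMA under R 2.15.1. That the logarithm is base 2 was taken from this method and the values' range, and any filter of theirs is not given in the sources used here. RMA quantile-normalizes arrays together, so an overall shift of signal in the cells cannot be read from these values. Array-wide differences remained in the deposited values. The interquartile range was 3.41 in DMSO replicate 1 and 3.61 or 3.62 in the other arrays. A platform annotation gave 23521 probe sets 1 symbol. Sulforaphane minus DMSO was estimated for 14652 genes in R 4.3.3 by limma 3.58.1, using lmFit with eBayes, without a replicate block and with Benjamini-Hochberg adjustment over all of them. The fit had 2 residual and 4.02 prior degrees of freedom, and was tested on simulated data. The number of arrays limits the precision of every value. Genes, lists and motifs were chosen with earlier results of these data known. Genes named were, per complex, up to 4 without overlap in each direction by p, the isoform families, the Sdh genes, those not tested, and 2 by p from each other list. Genes outside that rule, the grouping of subunits by role and the windows printed were chosen after values were seen. Alternatives were no filter, a filter at the 60th percentile, 2 other scalings, the mean of probe sets, an intensity trend, a replicate block and each array left out.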

Additional observations from a re-analysis of the deposited data

How the results depend on the processing

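The count of genes past the threshold was 0 with each of the 11 other settings, where limma called 0 (each array left out) to 249 (intensity trend) of all genes. The lowest adjusted p of a gene of the 5 complexes was 0.108, without DMSO replicate 2. The count of genes without overlap was 26 of 83 in the main setting (31.3%, against 43.6% of all genes tested). In the other settings with all arrays it was 25 to 28, of 77 to 89 genes. With an array left out it was 51 to 59 of 83, when the groups have fewer arrays to overlap. The share over all genes tested was not taken in those settings, so these counts cannot be set against it. With an array left out, the median ran from -0.014 to 0.061 over all 83 genes, -0.00023 to 0.056 for complex I, 0.052 to 0.16 for complex II, -0.018 to 0.14 for complex III, -0.057 to 0.075 for complex IV and 0.0016 to 0.13 for complex V. After a second quantile normalization the median of complex I was -0.023, that of all genes tested -0.0063, and 40 of the 83 genes lay above 0 against 54 with median centring. That of complex IV was -0.00053 without a filter, -0.025 after the second normalization and -0.0033 with Ndufa4, and that of all members -0.0046 after the second normalization. The signs of 47 of 83 genes turned with an array left out, and of 16 in a setting with all arrays. For these medians and signs the cause was not tested. Deviations of same-numbered samples had a correlation of -0.081 over the genes tested, which cannot show whether the samples were paired. With the replicate numbers as a block, 0 of the 83 genes passed by limma, with a lowest adjusted p of 0.342. Of the 83 genes, 14 had a mean log2 signal under 5 and no detection call was used.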
